A study of Mus musculus with 6 samples.

Results

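The urothelium is the stratified lining of the bladder. Basal cells rest on the basement membrane, intermediate cells lie above them, and large superficial cells face the urine and carry plaques of uroplakin proteins. The lining is replaced slowly in health. Cyclophosphamide (CPP) is a cytotoxic drug whose breakdown releases acrolein, a reactive aldehyde that collects in urine and damages the urothelium, and phosphoramide mustard, which crosslinks DNA. Cells with damaged DNA commonly stabilise the transcription factor p53, which raises a set of genes for cell cycle arrest, DNA repair and cell death.

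The cells described here are non-cycling urothelial cells of healthy and chronically injured mouse bladder mucosa, 24901 of the 34666 cell barcodes of the 4 libraries compared and of the 56629 barcodes of all 6 libraries of the series. A cell was a member if it had over 500 genes, at least 20 unique molecular identifiers (UMIs) in total of Krt5, Krt7, Krt8, Krt15, Krt18 and Krt19, more than 2 times as many of these as of Col1a1, Col1a2, Col3a1 and Dcn together, no UMI of Ptprc or Pecam1, and none of the cycling genes Top2a, Mki67, Birc5 and Ube2c. The healthy libraries held 5272 and 6914 members and the chronic libraries 8515 and 4200. These 16 genes chose the cells, so that their own levels are given only as a description. Members with 20 to 25 keratin UMIs, just inside the minimum, numbered 361 and 392 in the healthy and 108 and 275 in the chronic libraries, and cells with 15 to 19 that met the other conditions, just outside it, numbered 133 and 108, and 47 and 127.

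All mice were wild-type C57BL/6 animals aged 8 weeks, of both sexes, and no transgene or deletion was carried by any group. Healthy mice were untreated. Chronically injured mice had received 4 rounds of CPP at 75 mg/kg and were collected 48 h after the last, on day 11, so that the chronic state here is one of repeated and recent exposure. A further group, acutely injured mice collected 48 h after 1 injection of 150 mg/kg, gave 2 libraries with 8731 cells chosen in the same way, whose values stand beside those of named genes. Each condition was represented by 2 libraries from 4 to 6 mice in all, neither the labels nor the methods text say how many animals stood behind each library, and p-values therefore measure the spread between 2 libraries a group. The study processed its samples in batches, and since neither the labels nor the methods text say which library belonged to which batch, batch and injury cannot be told apart.

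The members carried general urothelial markers. In the 4 libraries Upk3a, a uroplakin, was at 1162 to 2892 plain CPM (UMIs of a gene scaled to a common total of all UMIs of the cells) and the epithelial adhesion gene Cdh1 at 192 to 249, each above its level in the other cells of the same library. The basal markers Krt14, Trp63, Itga6 and Col17a1 were also above the other cells, except in chronic replicate 2. There Trp63 was at 108.5 plain CPM in the members against 110 in the other cells. Col17a1 was at 7.15 against 10.15 and Krt14 at 1.45 against 2.115, while Itga6 was at 46.5 against 45.3. Col1a1, a collagen of fibroblasts, was at 18.4 to 49.6 plain CPM in the members, against 1319 to 5004 in the other cells. The endothelial genes Cdh5, Kdr and Flt1 stayed under 1 plain CPM, while the whole list of 12 endothelial markers, mostly Fabp4, summed to 93.0 to 633 plain CPM. In the 4 libraries 68.9% to 90.4% of the members carried at least 1 UMI of the 4 stromal genes of the rule, and whether these came from free RNA, from doublets or from the members themselves was not tested.

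The libraries differed from each other in depth and composition. Median UMIs per member were 11045.5 and 8376 in the healthy and 5957 and 8885 in the chronic libraries. Ribosomal protein genes took 48.2% and 44.4% of the members' UMIs in healthy and 31.2% and 43.6% in chronic mucosa, with chronic replicate 1 far below the others. Between 36 and 229 cell barcodes were shared by any 2 libraries.

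**Figure D1:**
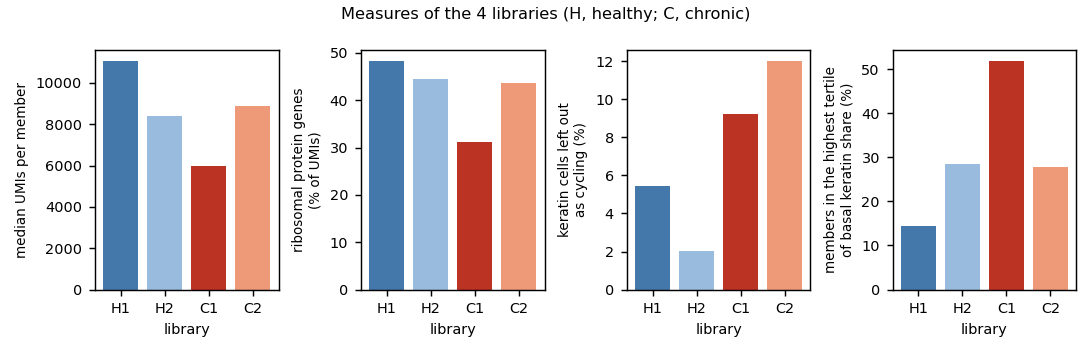
Bars give, for the 2 healthy (H1, H2) and 2 chronic (C1, C2) libraries, the median UMIs per member, the share of members' UMIs in ribosomal protein genes (%), the keratin-positive cells left out as cycling (%) and the members in the highest tertile of basal keratin share (%). Chronic replicate 1 has the fewest UMIs per cell (5957), the lowest ribosomal share (31.2%) and the most members in the highest tertile (51.8%), and both chronic libraries lie above both healthy ones in cycling cells.

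Cells left out for a UMI of a cycling gene made up 5.45% (95% Wilson interval 4.89 to 6.08) and 2.04% (1.74 to 2.40) of the keratin-positive cells in healthy mucosa and 9.21% (8.64 to 9.81) and 12.005% (11.1 to 13.0) in chronic mucosa. Both chronic libraries were above both healthy ones, by a mean of 6.86 percentage points, which is given without a test since these genes chose the cells. The intervals cover counting error only. The comparison that follows therefore leaves out more cells in chronic than in healthy mucosa.

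UMIs were summed over the members of each library and compared with edgeR's quasi-likelihood test, the question being which genes of resting urothelium remained altered after 4 rounds of CPP. Levels below are in CPM, the same kind of value after TMM scaling of these sums without mitochondrial and ribosomal protein genes, and fold changes are log2 values of chronic minus healthy with their standard error (SE). A summed level does not tell fewer expressing cells from less RNA per cell. Of 13581 genes tested, edgeR called 0 at an adjusted p below 0.05. At an unadjusted p below 0.05 it gave 909 genes (6.69% of those tested), 498 higher (3.67%) and 411 lower (3.03%) in chronic mucosa. DESeq2, run as an alternative on the same sums, called 107 of 12791 genes (0.837%), 76 higher (0.594%) and 31 lower (0.242%). Both chronic libraries were above both healthy ones for 2360 genes (17.4%) and below both for 2499 (18.4%), and the median fold change of all genes was -0.00159 on the log2 scale. No gene named below passed the adjusted threshold of edgeR, so the levels of each library are given first, with the 2 healthy libraries before the 2 chronic ones where groups are set against each other.

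Genes of the p53 response were mostly higher in chronic mucosa. Of 28 p53 targets tested, both chronic libraries were above both healthy libraries for 15, 53.6% against 17.4% of all genes, and below both for 2 (7.14% against 18.4%). The median log2 fold change of the 28 was 0.48. DESeq2 called 5 of them higher and none lower, where it called 0.594% of all genes higher, and edgeR gave 9 higher and none lower at an unadjusted p below 0.05, where it gave 3.67% of all genes higher.

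Cdkn1a (p21), which blocks the cyclin-dependent kinases of the G1 phase, was at 266 and 272 CPM in the healthy and 592 and 455 CPM in the chronic libraries, a log2 difference of 0.96 (SE 0.22, DESeq2 adjusted p = 0.0321). The 2 groups did not overlap. With each cell thinned to 3000 UMIs, 31.9% and 33.8% of the healthy and 60.02% and 48.98% of the chronic cells had a UMI of it. Before thinning the shares were 67.5% and 65.2% in healthy and 82.4% and 80.2% in chronic libraries. Thinning left out 0 and 17 healthy and 338 and 0 chronic cells that were too shallow. The 3000 UMIs included those of ribosomal protein genes. These took 31.2% of the members' UMIs in chronic replicate 1 and 43.6% to 48.2% in the other libraries compared. Thinned members of chronic replicate 1 therefore kept more UMIs of other genes, here and for the thinned shares below. The part of this in the shares was not tested.

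Stromal cells of the same libraries held more Cdkn1a than the members and differed in the same direction. Their median depth was 5053 and 3243 UMIs in the healthy and 2514 and 4174 in the chronic libraries. Thinning kept 2053 of 2053 and 1223 of 1826 healthy stromal cells, and 302 of 1275 and 121 of 121 chronic ones. Stromal shares of other genes below rest on the same cells, few in the chronic libraries. After thinning, 56.8% and 41.1% of the healthy and 98.3% and 95.04% of the chronic stromal cells had a UMI of Cdkn1a. This was above the members in every library, so that the members' shares are not read as expression by urothelial cells. Stromal cells were at 410.3 and 313 plain CPM in the healthy and 3001 and 1649.8 plain CPM in the chronic libraries, where the members were at 129.9 and 140.0 against 369.9 and 252. In members with no stromal UMI the log2 difference was 0.75, and in members with 4000 to 12000 UMIs 0.61.

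**Figure D2:**
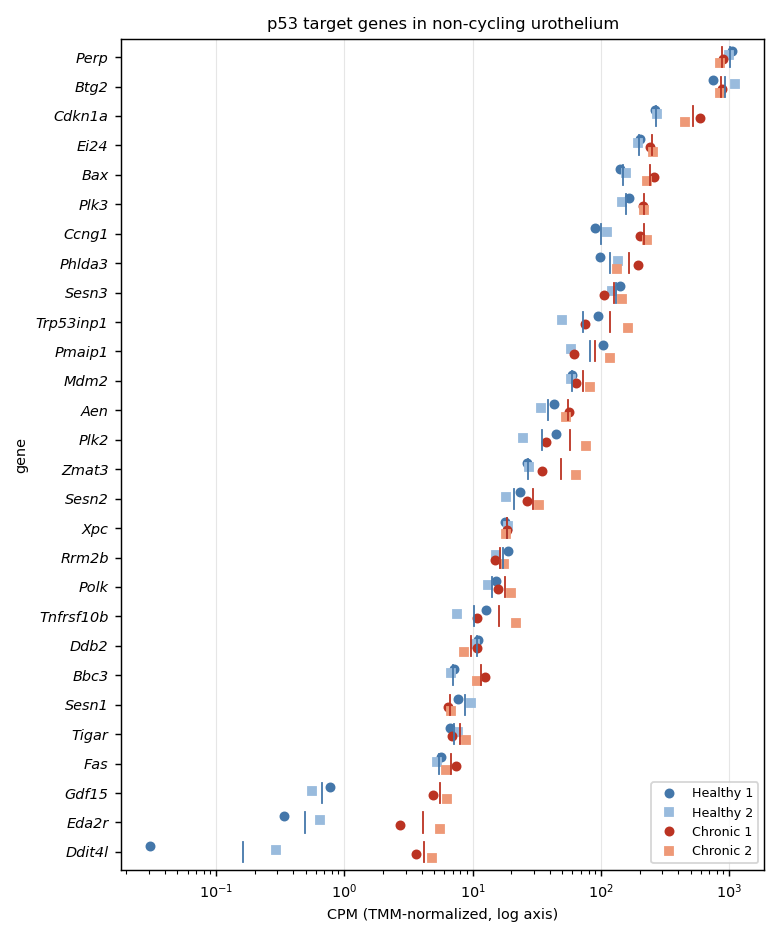
Each row is 1 of the 28 p53 targets tested, ordered by mean level, and each point is 1 library in TMM-normalized CPM on a log axis, with vertical strokes at the mean of the 2 healthy and of the 2 chronic libraries. Cdkn1a, Bax, Ccng1, Gdf15, Eda2r and Ddit4l show no overlap between the groups, while Perp lies slightly lower and Mdm2 only slightly higher in chronic mucosa.

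The mouse Cdkn1a gene lies on chromosome 17 from 29090976 to 29100727 on the plus strand (GENCODE, GRCm38). The stretch upstream of its first annotated start is shown because it holds the core of a p53 binding site, here defined as any 2 of CATG, CAAG and CTTG with NNNNNN between them, a definition that reads the same on both strands. The capitals mark this match, which ends 34 bases before the start that RefSeq gives for this transcript, slightly downstream of the GENCODE start above. The bases shown are chr17:29090901-29090974 (plus strand, GRCm38.p6, sequence from RefSeq):
Cdkn1a: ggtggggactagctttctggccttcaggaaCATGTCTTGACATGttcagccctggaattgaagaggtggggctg
Of the p53 targets tested, 20 had an upstream window of 250 bases in RefSeq and 3 held such a match in any window, namely Cdkn1a, Bbc3 and Aen. Among all 10128 tested genes with a window 334 held one (3.3%). A match of letters is a description of the sequence and no evidence of binding.

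Ccng1, a cyclin-like protein that p53 induces, was at 90.4 and 111 CPM in healthy and 203 and 228 CPM in chronic mucosa (log2 1.10, SE 0.22, DESeq2 adjusted p = 0.00635). Bax, which permeabilises the outer mitochondrial membrane in cell death, was at 142 and 156 CPM against 258 and 228 CPM (log2 0.70, SE 0.21) and was not called by DESeq2 (adjusted p = 0.268). Both genes showed no overlap between groups, and both were also above healthy levels after acute injury, Ccng1 at 245 and 132 CPM and Bax at 238 and 258 CPM.

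Among less abundant targets, Zmat3, a zinc finger protein that binds RNA, was at 26.5 and 27.4 CPM in healthy and 34.5 and 63.4 CPM in chronic mucosa, and its log2 difference of 0.86 became 0.36 without chronic replicate 2. The exonuclease gene Aen was at 42.8 and 34.2 against 56.7 and 53.04 CPM, and Bbc3 (Puma), a BH3-only inducer of cell death named after its values were seen, at 7.19 and 6.77 against 12.5 and 10.8 CPM. Each had an unadjusted edgeR p below 0.05 and none was called by DESeq2. The most abundant members did not follow. Perp, a desmosome component, was at 1050.0 and 990.4 CPM in healthy and 899 and 848 CPM in chronic libraries, and Btg2, an antiproliferative gene, at 744 and 1112 against 879 and 844. Mdm2, the ubiquitin ligase that marks p53 for degradation and also named after its values were seen, was at 59.9 and 58.3 CPM against 64.2 and 81.5 CPM (log2 0.30, SE 0.22, and 0.12 without chronic replicate 2).

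Large fold changes in this list belonged to 3 genes that were nearly absent from healthy cells. They were chosen after their values were seen. Gdf15, a stress-induced hormone of the TGF-beta family, had 25 and 19 UMIs in the healthy and 170 and 148 in the chronic libraries, or 0.772 and 0.557 against 4.89 and 6.29 CPM (log2 3.06, SE 0.38, DESeq2 adjusted p = 3.17e-07). Eda2r, a receptor of the TNF family, had 11 and 22 against 94 and 130 UMIs (log2 3.04, SE 0.54, DESeq2 adjusted p = 1.53e-04). Ddit4l, an inhibitor of mTOR signalling, had 1 and 10 against 125 and 113 UMIs (log2 4.64, SE 0.71, DESeq2 adjusted p = 6.80e-08). Its log2 difference was 3.82 without healthy replicate 1 and 6.91 without healthy replicate 2. All 3 were rare, since after thinning at most 1.07% of the chronic cells had a UMI of Gdf15, 0.952% of Eda2r and 0.667% of Ddit4l. In each of the 4 libraries the share of thinned stromal cells with a UMI was higher for all 3 genes, up to 11.9% for Gdf15, 9.09% for Eda2r and 4.64% for Ddit4l in chronic mucosa, so that the members' shares are not read as expression by urothelial cells. Gdf15 was at 5.66 and 3.82 plain CPM in healthy and 57.3 and 55.5 in chronic stromal cells, and in members with no stromal UMI its log2 difference was 2.83. Stromal cells also held more Eda2r (14.2 against 1.31 plain CPM) and Ddit4l (5.04 against 1.27 plain CPM) than the members, whose log2 differences without stromal UMIs were 3.87 and 4.41.

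The direct repair gene Mgmt, which removes alkyl groups from guanine in DNA, was at 11.9 and 13.6 CPM in healthy and 59.7 and 43.7 CPM in chronic mucosa, 4.05 times higher (log2 2.02, SE 0.25, DESeq2 adjusted p = 2.00e-08). The thinned share of cells with a UMI was 1.76% and 2.02% in healthy and 10.3% and 6.95% in chronic libraries, where 3.02% and 3.03% of the healthy and 9.60% and 6.61% of the chronic stromal cells had one. The members were below the stromal cells in both healthy libraries, and their shares are not read as expression by urothelial cells. Stromal cells averaged 20.8 plain CPM against 18.6 in the members, and the log2 difference was 2.31 in members with no stromal UMI. After acute injury Mgmt was at 37.4 and 31.2 CPM. Over the whole list of 30 crosslink and double-strand break repair genes 8 were above and 3 below without overlap (26.7% and 10.0%, against 17.4% and 18.4% of all genes), Mgmt was the only one called by DESeq2 (0.837% of all genes), and the median log2 fold change was 0.08. Its most abundant genes, Xrcc5 (Ku80) and Rad50, which act at double-strand breaks, were at 29.2 and 43.5 against 39.6 and 32.5 CPM and 31.02 and 56.7 against 45.5 and 25.4 CPM.

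**Figure D3:**
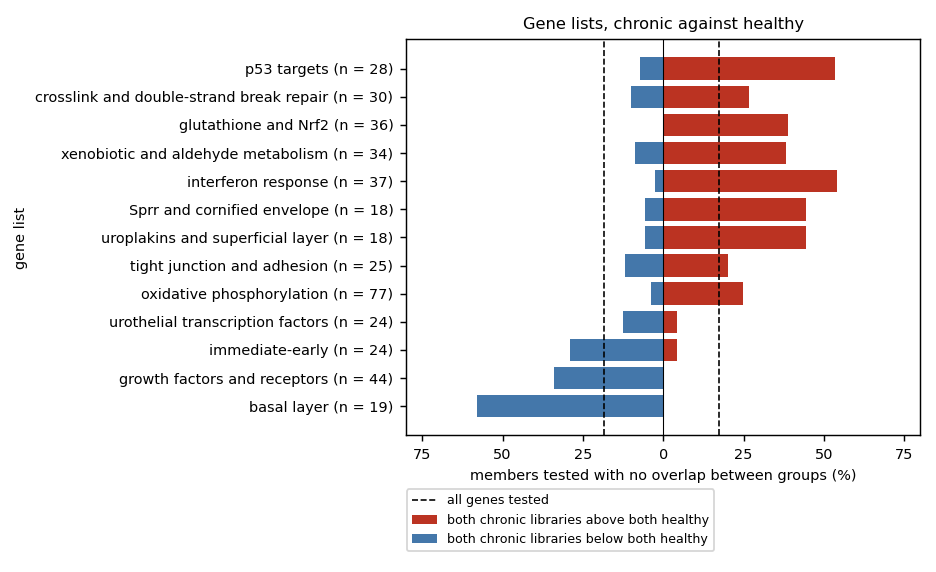
For 13 of the gene lists, with the number of genes tested beside each name, bars to the right give the share of tested members (%) with both chronic libraries above both healthy libraries and bars to the left the share with both below; dashed lines mark the shares over all genes tested, 17.4% and 18.4%. The p53 targets (53.6%) and interferon response genes (54.1%) reach furthest to the right and the basal layer genes (57.9%) furthest to the left among the 13 lists shown, which do not include the markers of other cell types.

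Genes of glutathione metabolism and of the Nrf2 response, which conjugate and reduce electrophiles such as acrolein, leaned to the higher side. Of 36 tested, 14 were above without overlap and 0 below (38.9% and 0%, against 17.4% and 18.4% of all genes), with a median log2 fold change of 0.41, and DESeq2 called 3, where it called 0.837% of all genes. Gstp1, a glutathione transferase, was at 71.5 and 65.5 CPM in healthy and 121 and 202 CPM in chronic mucosa (log2 1.24, SE 0.28, DESeq2 adjusted p = 0.0110), and 102 and 312 CPM after acute injury. Without chronic replicate 2 its log2 difference was 0.82. Of the 50-base stretches in the last 400 bases of its transcripts 43.6% also occur in Gstp2 or a pseudogene, so its reads are shared with them. Hmox1, which breaks down heme, was at 45.6 and 21.1 CPM against 86.7 and 80.7 CPM (log2 1.33, SE 0.36, DESeq2 adjusted p = 0.0268), with a log2 difference of 0.89 without healthy replicate 2 and 1.99 without healthy replicate 1.

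Gpx2 and Gpx3 encode glutathione peroxidases. Gpx2 was at 100.3 and 196 CPM in healthy and 299.7 and 258 CPM in chronic libraries, without overlap. Gpx3, the third gene of the list that DESeq2 called, was at 11.2 and 9.21 against 33.3 and 25.99 CPM (adjusted p = 2.02e-04), but stromal cells held 594 plain CPM of it where the members held 11.3, and the part of stromal RNA in its level was not tested. It fell short of the mean level set for named genes and was chosen after its values were seen. Gstm2 was at 64.4 and 67.9 against 96.6 and 87.4 CPM. The most abundant transferases overlapped between groups, Gstm1 at 22911 and 25709 CPM in healthy and 37339 and 25083 CPM in chronic mucosa and Gsta4 at 3058 and 4478 against 7727 and 3561 CPM. Gstm1 shares 24.1% of its stretches with other genes or pseudogenes.

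Among 34 genes of xenobiotic and aldehyde metabolism 13 were above and 3 below without overlap (38.2% and 8.82%, against 17.4% and 18.4% of all genes). Ephx1, which hydrolyses epoxides, was at 31.5 and 36.7 CPM in healthy and 73.7 and 60.6 CPM in chronic mucosa (log2 0.98, SE 0.22, DESeq2 adjusted p = 0.0413) and was the only one of the 34 that DESeq2 called, where it called 0.837% of all genes. The aldehyde reductase Akr1b8 was at 424 and 372 against 744 and 515 CPM, and the aldehyde dehydrogenase Aldh3b2 at 121 and 159 against 305 and 179. On the lower side, the oxidase Cyp1b1 was at 37.7 and 38.7 CPM in healthy and 22.9 and 9.34 CPM in chronic mucosa, and the exporter Abcc4 at 84.2 and 91.2 against 66.7 and 54.6 CPM. Fmo5, a monooxygenase and among the most abundant of the list, was at 2085 and 1778 against 2267 and 2179 CPM.

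The small proline-rich (Sprr) genes encode proteins of the cornified envelope of stratified epithelia. Of the list of Sprr and cornified envelope genes 18 of 30 could be tested, 8 of which were above and 1 below without overlap (44.4% and 5.56%, against 17.4% and 18.4% of all genes), with 4 called by DESeq2 (0.837% of all genes). Sprr2f was at 52.8 and 138 CPM in healthy and 436 and 326 CPM in chronic mucosa, 3.99 times higher (log2 2.00, SE 0.44, DESeq2 adjusted p = 1.71e-04). It was carried by 2.88% and 8.05% of the thinned healthy and 24.96% and 22% of the thinned chronic cells. Stromal cells thinned alike, which should lack this gene, carried it in 0.536% and 2.86% of healthy and 13.2% and 10.7% of chronic cells, below the members of every library. The size of the difference depended on the library, from a log2 of 1.46 without healthy replicate 1 to 2.86 without healthy replicate 2.

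Sprr2b was at 10.03 and 15.5 CPM in healthy and 46.8 and 48.2 CPM in chronic libraries (log2 1.90, SE 0.27, DESeq2 adjusted p = 8.09e-07). Sprr2a1 was at 11.1 and 33.1 against 50.7 and 111 CPM, with a log2 difference of 1.87 that ranged from 1.20 without chronic replicate 2 to 2.88 without healthy replicate 2, and Sprr2a3 at 1256 and 2168 against 3534 and 3001. The transcript ends of Sprr2a1 (100% of their 50-base stretches), Sprr2a3 (67.7%) and Sprr2b (13.7%) recur in other Sprr2 genes, so that reads may be split among them, whereas 0% of those of Sprr2f do. Tff1, a trefoil peptide of mucosal repair, was at 9.01 and 57.6 CPM in healthy and 131 and 141 CPM in chronic libraries (log2 2.02, SE 0.71) and was not called by DESeq2 (adjusted p = 0.892). Its log2 difference was 1.24 without healthy replicate 1 and 3.92 without healthy replicate 2. Sprr1a, among the most abundant of the list, was at 5464 and 7026 against 9905 and 7051 CPM, with one healthy and one chronic library almost level. After acute injury Sprr2f was at 150.1 and 210.3 CPM and Sprr2b at 20.8 and 21.7 CPM. The direct contrast of chronic with acute libraries gave a log2 difference of 1.15 for Sprr2b (SE 0.24) and 1.07 for Sprr2f (SE 0.43). In that contrast edgeR called 0 of 13746 genes at an adjusted p below 0.05 and 617 (4.49%) at an unadjusted p below 0.05.

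Of 18 genes of the superficial layer tested, 8 were above without overlap and 1 below (44.4% and 5.56%, against 17.4% and 18.4% of all genes), with a median log2 fold change of 0.30. Acer2, an alkaline ceramidase, was at 185 and 234 CPM in healthy and 383 and 468 CPM in chronic mucosa (log2 1.02, SE 0.23, DESeq2 adjusted p = 0.0209), and 15.6% and 19.9% of the thinned healthy against 35.2% and 34.2% of the chronic cells had a UMI of it, where stromal cells had 3.26% and 13.7% against 13.6% and 16.5%. Psca, a surface antigen of the urothelium, was at 1733 and 3206 CPM against 6556 and 4580.4 CPM (log2 1.17, SE 0.34), without overlap, and just missed DESeq2's threshold (adjusted p = 0.0532). Of the classical markers, Upk1a was at 3358 and 3237 CPM in healthy and 5041 and 4062 CPM in chronic libraries and Krt20 at 61.4 and 70.3 against 109 and 78.9 CPM, both without overlap and with log2 differences of 0.46 (SE 0.22) and 0.51 (SE 0.24), which became 0.30 and 0.26 without chronic replicate 1. Upk2, chosen after its values were seen, overlapped at 689 and 856 against 1304 and 802 CPM. Fam25c, which is on none of the gene lists, was chosen by its small unadjusted p among abundant genes. It was at 1107 and 1635 against 3354 and 3629 CPM (log2 1.35, SE 0.25, DESeq2 adjusted p = 6.20e-04).

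Several other genes that the study uses to describe urothelial layers did not separate. Clu, a secreted chaperone, was at 85.8 and 370.2 CPM in healthy and 475 and 245 CPM in chronic mucosa, the lipid hydrolase Abhd2 at 117 and 53.1 against 89.6 and 214, the apolipoprotein Apoc1 at 400.2 and 376 against 356 and 500.3, and the glucuronosyltransferase Ugt2b34 at 447 and 345 against 292 and 366 CPM. Claudins seal the space between cells, and 2 of them did separate, Cldn8 at 53.3 and 45.01 against 72.5 and 82.4 CPM and Cldn23 at 113 and 116 against 159.5 and 187 CPM, neither called by DESeq2, while the list of 25 tight junction and adhesion genes as a whole (5 above, 3 below, or 20% and 12%, median log2 -0.01) was close to all genes and its most abundant claudin, Cldn4, overlapped at 1693 and 795 against 1070.4 and 1702 CPM.

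Of 19 basal layer genes 0 were above without overlap and 11 were below (57.9% against 18.4% of all genes), with a median log2 fold change of -0.48. Krt14, the keratin of the most basal cells, was rare, with 142 and 601 UMIs in the healthy and 98 and 62 in the chronic libraries. Its levels of 4.38 and 17.6 CPM against 2.82 and 2.63 CPM gave a log2 difference of -2.01 (SE 0.60, DESeq2 adjusted p = 0.0265), which was -0.67 without healthy replicate 2, the library that held most of its UMIs. After thinning 0.835% and 2.49% of the healthy and 0.465% and 0.429% of the chronic cells had a UMI of it, and 0.0974% and 0.736% of the healthy stromal cells.

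Also from the basal layer list, Itga6, the alpha 6 integrin of hemidesmosomes, was at 158 and 125 CPM in healthy and 83.2 and 84.3 CPM in chronic mucosa (log2 -0.76, SE 0.22). Dst (dystonin), which ties keratin filaments to hemidesmosomes, was at 232 and 173 against 119 and 100.9 CPM (log2 -0.89, SE 0.23). Bcam, a laminin receptor, was at 102 and 117 against 78.03 and 48.9 CPM, and Itgb4, the partner of Itga6, at 71.4 and 77.3 against 54.96 and 56.8. None of the 4 was called by DESeq2, whose adjusted p ranged from 0.116 for Dst to 0.987 for Itgb4.

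The other basal genes that the study names were divided. Klf4, which the study links to stemness as it does Ly6a and Id3, was below without overlap, at levels given further down. Trf (transferrin) was at 359 and 275 CPM in healthy and 251 and 203 CPM in chronic libraries, below without overlap, and 70.2% of the stretches of its transcript ends also occur in other genes, so that its reads may be shared with them. Id3, an inhibitor of DNA binding, overlapped at 219 and 473 against 243 and 170.0 CPM, as did the matrix protein Thbs1 at 389 and 128 against 86.7 and 296. Ly6a, a surface marker of stem cells, ran the other way at 68.3 and 157 against 353 and 147 CPM but overlapped, and stromal cells held 1835 plain CPM of it against 104 in the members. Itgb1 (110.0 and 105 against 95.6 and 120.1 CPM), Itgav (67.8 and 36.2 against 51.9 and 68.2 CPM) and Itgb5 (58.5 and 51.02 against 45.5 and 54.9 CPM), further integrin subunits, overlapped too.

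The keratins of the rule did not show the same direction. Krt5 was at 529.9 and 724 CPM in healthy and 581 and 601 CPM in chronic mucosa and Krt15, also basal, at 1654 and 2302 against 3087 and 2081 CPM. Cells were placed in tertiles by the share of all their UMIs, those of ribosomal protein genes included, in Krt5, Krt14 and Krt15. The highest tertile held 14.3% and 28.5% of the healthy and 51.8% and 27.7% of the chronic members. Healthy replicate 1 was lowest, chronic replicate 1 highest and the other 2 libraries nearly level. Ribosomal protein genes took 48.2% of the members' UMIs in healthy replicate 1 and 31.2% in chronic replicate 1. Their part in the tertiles was not tested. Within the lowest, the middle and the highest tertile, the log2 difference of Itga6 was -1.09, -0.78 and -0.80, that of Dst -0.77, -1.14 and -0.99, and that of Sprr2f 1.52, 2.71 and 2.98.

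**Figure D4:**
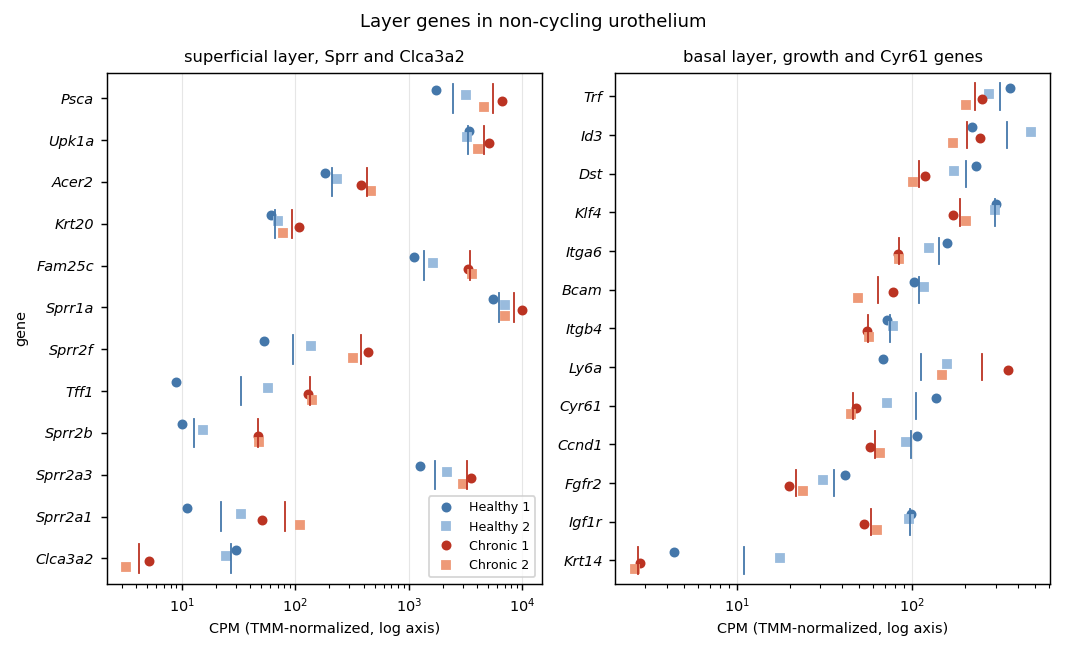
Each point is 1 library in TMM-normalized CPM on a log axis, with strokes at the mean of each group. The left panel shows genes of the superficial layer and Sprr lists with Fam25c and Clca3a2, which are not of those lists. The right panel shows basal layer genes with Klf4, Cyr61, Ccnd1, Fgfr2 and Igf1r. Sprr2f, Sprr2b, Acer2 and Fam25c are higher and Clca3a2, Itga6, Dst and Klf4 lower in both chronic libraries, whereas Ly6a and Id3 overlap.

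Genes of growth signalling leaned to the lower side as well. Of 44 growth factors and receptors 0 were above and 15 below without overlap (34.1% against 18.4% of all genes), with a median log2 fold change of -0.20, 4 lower at an unadjusted edgeR p below 0.05 (3.03% of all genes) and 0 called by DESeq2. Fgfr2, a receptor of fibroblast growth factors, was at 41.2 and 30.8 CPM in healthy and 19.9 and 23.9 CPM in chronic mucosa (log2 -0.72, SE 0.24), and Fgfr3 overlapped at 57.9 and 37.9 against 33.9 and 45.1 CPM. Igf1r, the receptor of insulin-like growth factor 1, was at 98.9 and 96.1 against 53.2 and 63.3 CPM (log2 -0.74, SE 0.21). Igfbp5 overlapped, at 59.4 and 13.5 CPM in healthy and 10.7 and 14.3 CPM in chronic libraries, and its log2 difference of -1.55 became -0.12 without healthy replicate 1. The most abundant of the list, Igfbp2 and the ligand Hbegf, overlapped at 819.9 and 1746 against 1793 and 1019.8 CPM and 582 and 811 against 624 and 429 CPM.

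Cyclin D1 (Ccnd1), which growth signals induce, was at 106 and 91.6 CPM in healthy and 57.6 and 65.6 CPM in chronic mucosa (log2 -0.69, SE 0.21). Of 24 immediate-early genes, which respond to growth signals and to tissue dissociation, 7 were below and 1 above without overlap (29.2% and 4.17%, against 18.4% and 17.4% of all genes). Klf4, which the study names as a stemness gene of its basal clusters, was at 299 and 295 against 171 and 203 CPM (log2 -0.67, SE 0.21). The nuclear receptor Nr4a1 was at 638 and 816 against 493 and 441 CPM. Cyr61, a matricellular protein and target of YAP, was at 138 and 71.7 CPM in healthy and 47.7 and 44.8 CPM in chronic mucosa (log2 -1.18, SE 0.32), and just missed DESeq2's threshold (adjusted p = 0.0532). Without healthy replicate 1 its log2 difference was -0.63. Stromal cells held more of both Klf4 (995 against 129 plain CPM) and Cyr61 (358 against 39.7 plain CPM), and in members with no stromal UMI the log2 differences were -0.85 and -1.09. The most abundant, Fos and Jun, overlapped at 1042 and 2388 against 1572 and 1447 CPM and 875 and 1063 against 895 and 746 CPM.

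Among the 31 genes that DESeq2 called lower were a pair of chloride channel regulators, chosen after their values were seen. Clca3a2 was at 30.3 and 24.5 CPM in healthy and 5.18 and 3.27 CPM in chronic mucosa, 6.43 times lower (log2 -2.68, SE 0.30, DESeq2 adjusted p = 2.85e-11), and 4.25% and 3.70% of the thinned healthy against 1.09% and 0.595% of the chronic cells had a UMI of it, above the at most 0.487% of stromal cells. Its neighbour Clca3a1 was at 14.3 and 7.62 against 1.09 and 1.91 CPM (log2 -2.89, SE 0.44, DESeq2 adjusted p = 3.19e-07). Their transcript ends share stretches (18.4% and 17.1%), so that reads of one may be counted for the other. Acute libraries lay between, with Clca3a2 at 14.7 and 10.5 CPM (chronic minus acute log2 -1.57, SE 0.31). Stromal cells held 1.23 plain CPM of Clca3a2.

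**Figure D5:**
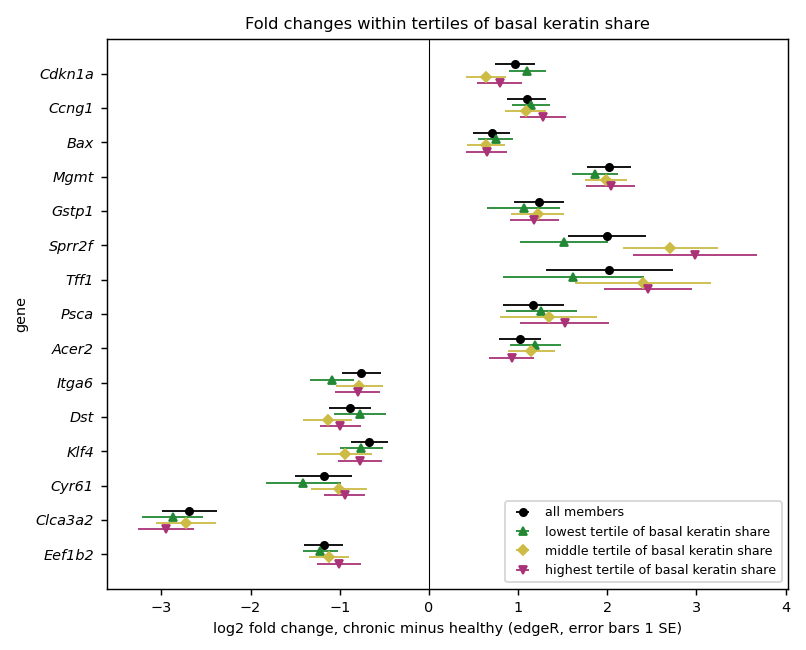
Log2 fold changes (chronic minus healthy, edgeR, error bars 1 SE) of 15 genes over all members and within tertiles of the share of UMIs in Krt5, Krt14 and Krt15. Every gene shown keeps its sign in the 3 tertiles; Sprr2f spans from 1.52 to 2.98.

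Interferon response genes were higher without overlap for 20 of 37 tested (54.1% against 17.4% of all genes) and lower for 1, with a median log2 fold change of 0.92, and DESeq2 called 3 (0.837% of all genes). Ifi27l2a was at 43.6 and 28.5 CPM in healthy and 95.04 and 115 CPM in chronic mucosa (log2 1.55, SE 0.27, DESeq2 adjusted p = 1.53e-04), yet stromal cells held 2165 and 1357 plain CPM of it in the healthy and 1973 and 2939 in the chronic libraries, far above the members, whose log2 difference was 1.56 without stromal UMIs. Ptprc-positive cells were few, 91 and 83 in the healthy and 34 and 29 in the chronic libraries. They held 797 and 643 plain CPM of Ifi27l2a in healthy and 2137 and 2548 in chronic libraries, without overlap and in the same direction as the members. In the members the summed macrophage markers were higher without overlap in plain CPM (98.7 and 87.4 against 126 and 151). After TMM scaling they were at 202 and 169.4 against 202 and 273.5 CPM, so that the groups were not apart. The part of Ptprc-positive cells in the interferon genes was not tested. The deubiquitinase Usp18 was at 24.1 and 21.7 against 39.2 and 36.6 CPM, without overlap. Irf7, a master factor of type I interferon, was at 10.1 and 3.08 CPM in healthy and 13.8 and 72.5 CPM in chronic libraries, so that chronic replicate 2 carried most of its difference. Without this library the log2 value was 1.07 in place of 2.71.

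Lgals3bp, a secreted glycoprotein that interferon induces, was at 79.2 and 56.9 CPM in healthy and 154 and 181 CPM in chronic mucosa (log2 1.30, SE 0.24, DESeq2 adjusted p = 0.00135). Stromal cells held 183 plain CPM of it where the members held 65.98, and Ptprc-positive cells went from 66.2 and 41.2 plain CPM in healthy to 199 and 145 in chronic libraries. In members with no stromal UMI its log2 difference was 1.48. The most abundant of the interferon list, Ly6e and Ifitm3, were at 116 and 210.0 against 302 and 229.6 CPM and 194 and 117 against 237 and 207 CPM, and stromal cells held 2248 plain CPM of Ifitm3 where the members held 104. Of 10 class I antigen presentation genes 1 was above and 0 below without overlap (10% and 0%, against 17.4% and 18.4% of all genes). The median log2 fold change of this list was -0.11. The gene above was H2-T23, at 83.1 and 129 against 159 and 184 CPM. B2m (947 and 326 against 505 and 568 CPM) and H2-D1 (556 and 314 against 506 and 413 CPM) overlapped. H2-D1 and H2-T23 share 22.5% and 14.9% of their stretches with other genes or pseudogenes, class I copies among them. Among 30 cytokine and inflammation genes 5 were above and 6 below without overlap (16.7% and 20%), shares close to the 17.4% and 18.4% of all genes. The alarmin Il33 was at 59.9 and 106 CPM in healthy and 146 and 127 CPM in chronic libraries, the cyclooxygenase Ptgs1 at 39.2 and 54.3 against 33.2 and 24.5, and the beta-defensin Defb1, from the list of antimicrobial genes (3 of 21 above, 2 below, or 14.3% and 9.52%), at 125 and 121 against 86.6 and 73.1 CPM. DESeq2 called none of Il33, Ptgs1 and Defb1. It called 1 of the 30 cytokine and inflammation genes lower, where it called 0.242% of all genes lower. Of the 21 antimicrobial genes it called 1 higher, against 0.594% of all genes.

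Eef1b2, a subunit of the elongation factor that recharges Eef1a1, was at 3899.7 and 3695 CPM in healthy and 1519.5 and 1830.0 CPM in chronic mucosa (log2 -1.18, SE 0.21, DESeq2 adjusted p = 0.00126). Tpt1, a growth-related protein under translational control, was at 9078 and 10597 against 3059.9 and 4931 CPM (log2 -1.30, SE 0.28, DESeq2 adjusted p = 0.00358), Gnb2l1 (Rack1), a component of the small ribosomal subunit, at 3461 and 3830.4 against 1669.6 and 2063, and Eef1a1 at 14913 and 14666 against 7910.2 and 9002 CPM. Chronic replicate 1, with the lowest ribosomal share of UMIs (31.2%), had the lowest value of each of the 4 genes, and chronic replicate 2 was below both healthy libraries at a share (43.6%) close to that of healthy replicate 2 (44.4%). The part of this share in the differences was not tested. Without chronic replicate 1 the log2 difference of Eef1b2 was -1.05, that of Tpt1 -0.997. AY036118 (309 and 287 against 63.4 and 113 CPM) and Gm42418 (843 and 479 against 202 and 306 CPM), which overlap ribosomal RNA sequence, were also lower, Gm42418 with a log2 difference of -1.38 that was -0.92 without healthy replicate 1, and the acute libraries were far apart in both. Stretches of transcript ends shared with pseudogenes or other genes made up 100% for AY036118, 53.8% for Eef1a1, 24.1% for Tpt1 and 12.1% for Eef1b2, so that these levels may include reads of such copies.

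Further genes with a small unadjusted p were Polr2l, a subunit of RNA polymerases, at 89.4 and 90.4 CPM in healthy and 176 and 227 CPM in chronic mucosa, and Usp50 at 64.3 and 78.99 against 133 and 168 CPM, whose transcript ends share 18.6% of their stretches with other genes, Polr2l among them. On the lower side were Zbtb20, a transcriptional repressor, at 113 and 92.6 against 52.8 and 52.8 CPM and the chromatin regulator Ankrd11 at 104 and 103 against 58.5 and 56.2 CPM. Stromal cells held 296 plain CPM of Zbtb20 where the members held 41.3, and its log2 difference was -0.98 in members with no stromal UMI. DESeq2 called Polr2l, Usp50 and Zbtb20 (adjusted p = 0.00264, 0.0164 and 0.0385). The heat shock gene Hspa1b was at 35.6 and 56.1 against 69.6 and 229 CPM, and its log2 difference of 1.71 (DESeq2 adjusted p = 0.0197) became 0.60 without chronic replicate 2. The glycolytic genes Aldoa and Eno1 were at 521 and 612 against 889.9 and 742 CPM and 68.96 and 60.6 against 122 and 87.8 CPM, with 12.2% and 43.7% of their stretches shared with other genes or pseudogenes. Pcna, the sliding clamp of DNA polymerases, was at 18.2 and 17.5 CPM in healthy and 27.2 and 25.9 CPM in chronic mucosa (log2 0.57, SE 0.21), with 26.6% of its stretches shared with a pseudogene, and 12 of 28 replication genes were above and 2 below without overlap (42.9% and 7.14%), a list related to the cycling genes that chose the cells. Of 77 genes of oxidative phosphorylation 19 were above and 3 below (24.7% and 3.90%). Over all genes these shares were 17.4% and 18.4%. DESeq2 called 1 of the 77 oxidative phosphorylation genes higher, where it called 0.594% of all genes higher.

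The other lists are given by their counts, to be read against the 17.4% of all genes above and 18.4% below without overlap. Of 12 heat shock genes 4 were above and 3 below (33.3% and 25%), of 19 genes of the unfolded protein and amino acid response 5 and 3 (26.3% and 15.8%), and of 24 urothelial transcription factors 1 and 3 (4.17% and 12.5%). Of 12 YAP targets 1 was above and 4 were below (8.33% and 33.3%), of 24 genes of sterol synthesis 7 and 2 (29.2% and 8.33%), and of 41 genes of fatty acid and lipid metabolism 8 and 6 (19.5% and 14.6%). In the glycolysis and hypoxia list 9 of 26 were above and 1 below (34.6% and 3.85%), in water, urea and ion transport 3 and 5 of 26 (11.5% and 19.2%), in G1 cyclins, kinases and inhibitors 6 and 2 of 19 (31.6% and 10.5%), and in class II antigen presentation 3 and 1 of 7 (42.9% and 14.3%). DESeq2, which called 0.837% of all genes, called 1 of the 12 heat shock genes, Hspa1b, and no gene of the other lists in this paragraph. Their abundant genes with an unadjusted edgeR p below 0.05 included Atf4, a factor of the amino acid response, at 326 and 249 against 158 and 207 CPM, the desaturase Fads1 at 193 and 203 against 127 and 136 CPM, the kinase Pdk1 at 56.6 and 38.5 against 27.6 and 31.2 CPM and the potassium channel Kcnn4 at 63.8 and 66.9 against 43.96 and 36.5 CPM.

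Chosen after their values were seen, 2 further genes that DESeq2 called were Atg9b, of the autophagy machinery, at 3.77 and 6.89 CPM in healthy and 28.9 and 48.8 CPM in chronic mucosa (log2 2.86, SE 0.39, adjusted p = 1.34e-10), and Ak1, an adenylate kinase, at 4.14 and 6.10 against 23.6 and 26.7 CPM (log2 2.29, SE 0.28, adjusted p = 5.05e-09). Stromal cells held 136 plain CPM of Ak1, above the 8.66 of the members, and 4.42 of Atg9b, below the 12.6 of the members. Both were above healthy levels in the acute libraries too, Atg9b at 33.5 and 10.5 CPM and Ak1 at 19.9 and 15.3 CPM.

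Transcripts of other cell types were found in the members. Hemoglobin genes, which mark red blood cells, summed over the 4 of 6 listed genes found to 183 and 159.7 plain CPM in the healthy and 40.1 and 4.95 in the chronic libraries, without overlap, although the suspensions had been passed through a step to remove red cells. Hbb-bs was at 206 and 168 CPM against 34.2 and 5.69 CPM, with 56.7% of its stretches shared with Hbb-bt. Ccl5, a chemokine of lymphocytes chosen after its values were seen, was at 19.9 and 9.44 CPM in healthy and 1.41 and 0.679 CPM in chronic members (log2 -3.77, SE 0.50, DESeq2 adjusted p = 2.85e-11) and at 998 plain CPM in Ptprc-positive cells. Its log2 difference ranged from -3.14 without healthy replicate 1 to -4.42 without chronic replicate 1. Summed markers of fibroblasts (19 of 19 found) were at 676 and 699.8 plain CPM in healthy and 1096 and 506 in chronic members. Those of macrophages (17 of 18) were at 98.7 and 87.4 against 126 and 151. Those of smooth muscle and myofibroblasts (12 of 12) were at 142 and 133.5 against 151 and 116. Lymphocyte markers (7 of 16) summed to 3.85 and 3.31 against 2.12 and 2.39, and endothelial markers (12 of 12, mostly Fabp4) to 93.0 and 359.8 against 633 and 194. In plain CPM the sums of macrophage and lymphocyte markers did not overlap between the groups, while those of fibroblasts, smooth muscle and endothelium did. After TMM scaling macrophage markers summed to 202 and 169.4 CPM in healthy and 202 and 273.5 CPM in chronic members, so that the groups were not apart. Those of smooth muscle and myofibroblasts summed to 290.9 and 258.9 against 242 and 209.4 CPM, without overlap. Lymphocyte markers stayed lower without overlap, at 7.59 and 6.36 against 3.34 and 4.25 CPM. Of the genes of these lists that were found, none was at 0 in any of the 4 libraries apart from Gzma, a granzyme, in chronic replicate 1. Only genes present for all 6 libraries could be found, so that markers missing from any library were not counted here. Of the other genes named above whose groups did not overlap, several were more than 2 times higher in plain CPM in stromal cells than in the members. In the p53 list these were Aen (53.97 against 25.8), Bax (268 against 109), Bbc3 (24.9 against 5.19) and Mdm2 (98.8 against 36.1). In the interferon list they were Irf7 (56.8 against 13.8) and Ly6e (363 against 120.2). In other lists they were Atf4 (294 against 125), Cyp1b1 (54.6 against 14.5), Gstm2 (179.6 against 43.8), Hbb-bs (199 against 52.9), Hspa1b (133 against 54.1), Nr4a1 (817 against 321), Pcna (25.4 against 12.3) and Ptgs1 (50.1 against 20.4). In Ptprc-positive cells this held for Hmox1 (132 against 32.96), Eno1 (164 against 47.5), Ccnd1 (112 against 42.8), H2-T23 (191 against 77.01) and Trf (450.3 against 147), among others.

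The part of such cells in the differences above was not tested, beyond the values in members with no stromal UMI. In these members the count of p53 targets above without overlap was 15 of 28 (53.6%) and that of interferon genes 18 of 30 (60%). That of basal genes below was 9 of 18 (50%). Of all 11533 genes tested in these members 16.8% were above and 17.4% below without overlap. Fewer interferon and basal genes could be tested here than the 37 and 19 in all members.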

How the data were processed

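Single cells of bladder mucosa were sequenced by the authors with a droplet 3' method, and per the study's methods and submitters' notes reads were processed with Cell Ranger against mm10. The deposited values are UMI counts per gene and cell, 1 table per library, not normalized, and no further column of per-sample values was present. Totals were 88810283 and 79829001 UMIs in the healthy and 69211986 and 54604109 in the chronic libraries, of which 66425537, 66255437, 55757174 and 42851229 lay in the members. The last line of one healthy table was incomplete and was dropped. Neither the labels nor the methods text give the number of mice or the batch of each library.

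Counts of the members were summed per library over 14450 genes present in all 6 tables by Ensembl ID. After removal of 13 mitochondrial and 89 ribosomal protein genes, which limits levels to the remaining genes, 13581 passed filterByExpr. edgeR 4.0.16 (TMM, glmQLFit, glmQLFTest, Benjamini-Hochberg) was the test, with DESeq2 1.42.0 as an alternative (R 4.3.3). Both were tested on simulated data with 200 of 13581 genes changed 4-fold between 2 and 2 libraries, where edgeR recovered 81.5% and called 11 unchanged genes and DESeq2 recovered 82.0% and called 23. The simulated counts were drawn independently for each gene and library from the fitted spread. These rates therefore need not hold for the real libraries, in which edgeR called 0 genes. Shares of cells were compared without a test, 2 against 2 libraries allowing an exact two-sided p no smaller than 0.33. Tables were handled with Python 3.11.15, numpy 2.4.6, pandas 2.3.3 and scipy 1.17.1, and plots with matplotlib 3.10.9. Levels in stromal cells and Ptprc-positive cells, for comparison, are of cells that failed the keratin condition. Ptprc-positive cells numbered 91 and 83 in the healthy and 34 and 29 in the chronic libraries, so that their levels rest on few cells. No doublet caller was run, and leaving out cells without a clean profile (no stromal UMI, or not among the highest 5% of UMIs) served as alternatives. Replicate numbers were not tied to shared animals or days by the labels.

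The cells, the gene lists and the genes named were chosen with earlier results of these data known. Genes were named if they had a mean of at least 50 CPM, did not overlap between groups and were among the 10 with the smallest unadjusted p in each direction, since none passed the adjusted threshold; if they belonged to a list, had an unadjusted p below 0.05 and a mean of at least 20 CPM, or were among the 2 most abundant of the list; or if the study names them for urothelial layers or the choice of cells used them. Lists given by counts alone were not spelled out gene by gene. A gene counted as sharing sequence by the 50-base stretches of the last 400 bases of its transcripts (GENCODE, GRCm38). Other settings tried were RLE factors, no low-count filter, all 6 libraries, other limits on cells, and each library left out.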

Additional observations from a re-analysis of the deposited data

Results flagged for a closer look

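For Upk1a and Pcna both chronic libraries were above and both acute libraries below both healthy ones, for Pcna by very little in the acute libraries. Upk1a, a uroplakin, was above both healthy libraries in both chronic ones (log2 0.46) and below both in both acute ones (log2 -0.26), and chronic minus acute was 0.72 on the log2 scale (edgeR, unadjusted p = 0.00633). Pcna, the clamp of DNA polymerases, was higher after chronic injury (log2 0.57) and nearly level with healthy after acute injury (log2 -0.0322), with chronic minus acute at 0.60 (edgeR, unadjusted p = 0.0123). Neither difference between chronic and acute injury passed edgeR's adjusted threshold, under which 0 of 13746 genes were called. The levels of Upk1a were 3358 and 3237 CPM in healthy, 2792 and 2703 in acute and 5041 and 4062 in chronic libraries, and those of Pcna 18.2 and 17.5, 17.4 and 17.3 and 27.2 and 25.9 CPM. Groups of 2 libraries are too small for a test of single outlying libraries.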

How the results depend on the processing

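With 2 libraries a group, the number of genes called depended on the test and on single libraries. In place of 0, DESeq2 called 107 (76 higher, 31 lower), and edgeR called 2 (0 higher, 2 lower) in the highest tertile of basal keratin share. It called 5 without chronic replicate 2, 21 without chronic replicate 1, 117 without healthy replicate 1 and 169 without healthy replicate 2, where the lone library is assumed to vary like the other group. DESeq2 called 26 to 122 over the same omissions, with 26 without healthy replicate 1 and 44 without chronic replicate 2. Chronic against acute gave 0 to 65, the latter without acute replicate 1. RLE factors, no low-count filter, all 6 libraries, mitochondrial and ribosomal genes kept and the other choices of cells called 0. The cause was not tested.

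With the replicate number as a block, edgeR called 108 genes (74 higher, 34 lower). The labels do not say that a number marks a shared animal or day. Differences between replicates 1 and 2 ran in opposite directions in the 2 groups (r = -0.466 over 7969 genes). Whether libraries of the same or of crossed numbers shared a batch was not tested. The block turned the sign of Itgb1 (log2 -0.00651) and Xrcc5 (log2 0.00928). A crossed pairing, added after the data were seen, gave 32 calls (21 higher, 11 lower).

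For the p53, glutathione, Sprr, interferon, basal layer and growth factor lists, the counts without overlap stayed within 1.5 times under every choice of cells tried. Leaving out a library moved them to 16 to 31 (glutathione), 20 to 34 (interferon), 19 to 29 (growth factors, lower), highest without chronic replicate 2, healthy replicate 1 and chronic replicate 2, where a lone library also separates more of all genes (30.3% to 37.4%). Of 2070 values of 109 named genes under alternatives, 45 changed sign, in 19 genes. Leaving out 1 library turned the sign, with the range of the log2 value over the 4 omissions given, for Apoc1 (-0.12 to 0.37) without chronic replicate 2, for B2m (-0.81 to 0.72), Clu (-0.0413 to 2.08) and Fgfr3 (-0.55 to 0.0596) without healthy replicate 1, for Btg2 (-0.37 to 0.22), Fos (-0.66 to 0.54) and Krt5 (-0.29 to 0.17) without healthy replicate 2, for Cldn4 (-0.28 to 0.80), Itgav (-0.17 to 0.73), Itgb1 (-0.17 to 0.16), Rad50 (-0.79 to 0.21) and Xrcc5 (-0.27 to 0.31) without healthy replicate 2 or chronic replicate 2, for Gsta4 (-0.0819 to 1.04) and Itgb5 (-0.26 to 0.00313) without chronic replicate 1, for H2-D1 (-0.26 to 0.55) without healthy replicate 2 or chronic replicate 1, for Igfbp2 (-0.33 to 0.79) and Thbs1 (-1.57 to 0.57) without healthy replicate 1 or chronic replicate 1. Other choices turned it in the highest tertile for Apoc1 (-0.00533), Igfbp2 (-0.0194), Itgb1 (-0.12), Ugt2b34 (0.33) and Xrcc5 (0.11), in the lowest tertile for Cldn4 (-0.0401), Fos (0.0161), Igfbp2 (-0.12) and Krt15 (-0.15), in cells with 4000 to 12000 UMIs for Igfbp2 (-0.13) and Itgb1 (-0.16), with cycling cells kept for Itgb1 (-0.0312), in cells with no stromal UMI for Itgb1 (-0.00788), in cells of over 1000 genes and under 5% mitochondrial UMIs for Itgb1 (-0.00224), without the highest 5% of UMIs for Itgb1 (-0.0161) and Xrcc5 (0.0156), in the middle tertile for Itgb1 (-0.15) and Krt15 (-0.12).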
